A study of Mus musculus with 39 samples.

Results

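Immediate early genes, 10 in all, were followed across 39 lungs: the AP-1 members Fos, Fosb, Fosl2, Jun and Junb, the transcription factors Egr1, Atf3 and Nr4a1, and the response genes Ier2 and Ier3. Every probe whose symbol in the platform's annotation is one of these names was taken, which gave 10 probes of the 20868 gene probes on the array, 1 probe for each gene, and 10 of the 16887 genes with a symbol. All 10 were among the 17560 probes kept for testing.

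Immediate early genes are transcribed within minutes of a stimulus from factors already present in the cell, without new protein synthesis, and their transcripts are short-lived. Fos and Jun proteins pair through leucine zippers into AP-1, which binds DNA and turns on a later wave of genes, while Egr1 and Nr4a1 bind sites of their own. In lung they are known to respond to growth factors, oxidants, mechanical stretch and tissue handling.

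Male F1 mice of a C57BL/6 by CBA cross, aged 8 to 10 weeks, breathed mainstream tobacco smoke (MTS) nose-only, 2 cigarettes daily and 5 days weekly. The groups were 6 week smoke and its 6 week sham, 12 week smoke and its 12 week sham, and, for either duration, smoke and break with its break sham, in which a further 6 weeks without exposure followed. Sham mice were held in the same restrainers without smoke, so restraint during the exposure weeks is common to all 8 groups. Groups with a break were 6 weeks older at sampling than those without, and recent restraint may differ between them. The part of either was not tested. The labels give 3 h after exposure for every mouse, the break groups included. Each group held 5 mice except 12 week smoke, with 4, and each lung was labelled with Cy5 and hybridized on an array of its own against a Cy3-labelled reference RNA pool. All levels below are log2 ratios of lung to that reference, so a level of one gene is not comparable with that of another. Mice carry the names m1 to m5 in each group, and equal names do not pair them. Where a tissue is measured whole, fewer cells of a type and less RNA per cell cannot be told apart.

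Median Cy5 signal per array was 268 to 1532, and 48.4% to 94.6% of probes exceeded the threshold set from negative control spots, the fewest in 6 week smoke m4. Lung epithelial markers were present (11 of 11 kept, mean log2 ratio 2.24 to 4.25), and so were heart muscle markers (6 of 6 kept, 1.29 to 3.61). Cyp1a1, a smoke-induced enzyme that served to check the labels, was at 5.07 to 8.06 in the 9 smoke arrays and at 0.45 to 2.81 in 29 of the other arrays. The array labelled 6 week sham m2 was at 6.46 and so goes against its label. Cyp1b1, used in the same check, was at 2.00 there and at 1.47 to 2.32 in the smoke arrays. The array was kept among the shams as labelled, and most fitted effects that rest on it are given without it too. Exposure-date labels fall into 5 runs of 7 to 8 arrays, and run was a block in the limma fit. In label order 6 week sham m2 held place 5 of run 5, the place of 12 week smoke in runs 1, 2 and 3. Run 5 held another array labelled 6 week sham and none labelled 12 week smoke. Which group this lung came from was not tested. P-values measure the spread between these mice.

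Fos was above the threshold on 38 of 39 arrays, Fosl2 on 36, Atf3 on 35 and each other member on all 39. Of the 10 probes, 3 reached the scanner limit of 65535 in Cy5: Nr4a1 on 24 arrays, Junb on 21 and Egr1 on 6. Differences in those genes may be cut short wherever such arrays enter.

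Upstream sequence is shown for 4 members that stand for the patterns below: Ier3, which moved with smoke, Fos, the founding AP-1 member, Junb, whose ratio was limited by the scanner, and Atf3, the most variable of the dim members. RefSeq (GRCm38.p6) held promoters for 8 of the 10 members. Each line gives the 250 bases before the transcription start, 5′ to 3′ on the gene's strand, with matches to GGAATTTCC (Ier3) or to TGACG on either strand (the other 3) in capitals. The Ier3 bases lie at chr17:35821463-35821712 (+), those of Fos at chr12:85473640-85473889 (+), those of Junb at chr8:84978749-84978998 (-) and those of Atf3 at chr1:191183334-191183583 (-).
Ier3: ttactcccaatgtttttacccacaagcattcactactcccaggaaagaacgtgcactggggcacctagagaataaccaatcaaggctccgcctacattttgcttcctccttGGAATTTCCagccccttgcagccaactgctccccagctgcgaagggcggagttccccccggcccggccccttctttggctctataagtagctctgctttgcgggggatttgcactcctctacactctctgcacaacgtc
Fos: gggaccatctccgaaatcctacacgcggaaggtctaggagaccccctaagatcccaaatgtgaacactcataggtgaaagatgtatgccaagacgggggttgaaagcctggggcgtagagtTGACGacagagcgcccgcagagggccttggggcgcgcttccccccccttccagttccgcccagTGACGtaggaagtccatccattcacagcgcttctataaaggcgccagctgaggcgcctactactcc
Junb: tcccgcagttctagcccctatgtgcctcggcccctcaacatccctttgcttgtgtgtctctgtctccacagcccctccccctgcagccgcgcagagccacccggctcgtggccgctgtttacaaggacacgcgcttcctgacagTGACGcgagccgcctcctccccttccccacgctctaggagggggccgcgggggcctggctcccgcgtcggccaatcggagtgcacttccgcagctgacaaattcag
Atf3: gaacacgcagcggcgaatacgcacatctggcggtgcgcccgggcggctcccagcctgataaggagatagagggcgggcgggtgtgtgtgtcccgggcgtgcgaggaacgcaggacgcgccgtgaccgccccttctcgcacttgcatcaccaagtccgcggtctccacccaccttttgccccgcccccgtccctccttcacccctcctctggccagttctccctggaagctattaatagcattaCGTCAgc
Both motifs were picked after the sequences were seen. TGACG, the core of the cAMP response element (CRE), was in 5 of the 8 member promoters, namely Fos, Fosb, Junb, Atf3 and Nr4a1, and in 20.8% of all 32851 promoters of 300 bases (250 before and 50 after the start). GGAATTTCC, an NF-kB-like site, was in the Ier3 promoter alone among the 8 and in 0.317% of all. Neither the full CRE TGACGTCA (1.79% of all promoters), nor the AP-1 site TGANTCA (7.81%), nor the CArG box bound by serum response factor (1.63%) was found in any of the 8 windows on either strand. TGACG lies within the full CRE. A match here is a description of letters only.

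The first comparison asks what MTS did to these genes. Ier3, on chromosome 17, a regulator of apoptosis and survival signalling that is known to be induced by NF-kB, was higher in lungs of smoke-exposed mice. Over both durations the smoke effect on Ier3 was 0.475 on the log2 scale (SE 0.108, 1.39-fold, limma adjusted p = 0.0209). It was the only member called, 1 of 10, where 1.22% of all kept probes were called. None of the other 9 passed the test. Ier3 belongs to a list the study chose on these arrays, so its direction is not independent evidence.

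In 6 week smoke Ier3 was at 1.09, 0.75, 0.82, 1.12 and 1.12 in m1 to m5, against 0.06, 1.34, 0.61, 0.54 and 0.58 in 6 week sham m1 to m5. All 5 smoke lungs lay above 4 of the 5 sham lungs, and the 1 sham lung above them, m2, was the highest of all 39 arrays and the one whose Cyp1a1 goes against its label. Group means were 0.98 ± 0.18 in 6 week smoke and 0.62 ± 0.46 in 6 week sham (SD, n = 5 each), a difference of 0.38 (SE 0.148, 1.3-fold) that did not pass (limma adjusted p = 0.444). Of the members, 0 of 10 were called in 6 week smoke, where 0.0626% of all probes were. Without m2 the difference was 0.54 (1.46-fold, limma adjusted p = 0.0628).

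In 12 week smoke Ier3 was at 1.00, 1.12, 1.09 and 1.20 in m1 to m4, against 0.44, 0.75, 0.24, 0.56 and 0.81 in 12 week sham. The groups did not overlap, which held in this direction for 1.99% of all probes. Means were 1.10 ± 0.08 in 12 week smoke (SD, n = 4) and 0.56 ± 0.23 in 12 week sham (SD, n = 5). The difference of 0.57 (SE 0.155, 1.48-fold) did not pass in limma (adjusted p = 0.121), and without 6 week sham m2, which enters only through the shared spread and run terms, it passed at 0.55 (limma adjusted p = 0.035). At 12 weeks 0 of 10 members were called, beside 0.433% of all probes. Without m2 1 of 10 was called (Ier3), beside 0.518% of all probes. The 2 durations did not differ beyond their error for Ier3 (12 week minus 6 week effect 0.19, limma adjusted p = 0.98, 0% of all probes called, 854 at an unadjusted p under 0.05). Without 6 week sham m2 that value was 0.01.

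**Figure D1:**
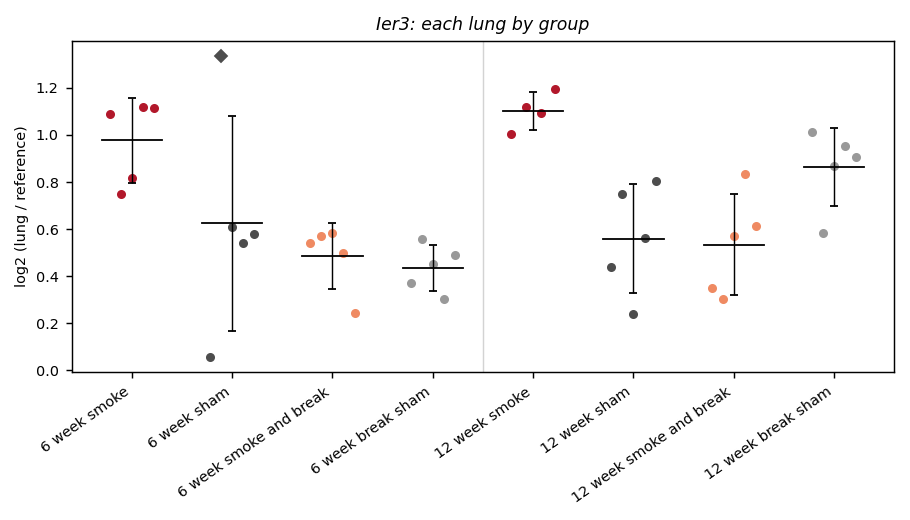
Ier3 log2 ratio of lung to reference (vertical axis) in each of the 39 lungs by group, smoke groups left of their shams; points are lungs, black bars mean ± SD, and the diamond marks the array labelled 6 week sham m2. The 9 smoke lungs lie between 0.75 and 1.20 and the other 9 sham lungs between 0.06 and 0.81.

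Ier3 held its direction in each run that held both groups. Smoke minus sham within a run was above 0 in 4 of 4 runs at 6 weeks (0.16 to 1.03) and in 4 of 4 runs at 12 weeks (0.37 to 0.86). For these and the within-run counts below, the share of all probes with the same sign in every run was not computed. Run accounted for 4.5% of the variance of Ier3 and group for 57.5%, beside medians of 17.7% and 18.7% over all probes. The pooled call depended on 1 array and on the groups fitted: without 6 week sham m1 it was 0.40 (limma adjusted p = 0.0575), and with only the smoke and sham groups in the fit 0.50 (limma adjusted p = 0.137). Without m2 it was 0.55 (1.46-fold, limma adjusted p = 0.000517, 1.62% of all probes called).

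Some macrophage markers were called in the same comparison. Of the 7 listed, 6 were kept, 2 were called higher with smoke over both durations and all 6 were above 0 (median 0.61). The listed markers include Chi3l3, which, like Ier3, the study chose on these arrays, so its direction is not independent evidence. Their mean log2 ratio ranged between 1.49 and 2.42 in 6 week smoke, against 0.83 and 1.45 in 6 week sham. At 12 weeks it ranged between 1.38 and 1.78 in smoke, against 0.57 and 1.50 in sham. With a break the ranges were 1.05 to 1.47 in 6 week smoke and break, against 0.89 to 1.47 in its break sham. For the 12 week arm smoke and break spanned 1.21 to 1.67, against 0.78 to 1.78 in its break sham. Over the 39 arrays, which share the reference, the runs and the groups, that mean correlated with Ier3 at r = 0.57. Of the neutrophil markers, 5 of 6 were kept, 0 were called, and r was 0.09. Of the heart muscle markers 6 of 6 were above 0 (median 0.42, or 0.49 without 6 week sham m2) and of the lung epithelial markers 9 of 11 (median 0.24), with 0 called in either, and r with Ier3 was 0.07 and 0.13. The part of these cell types in the Ier3 result was not tested.

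A break after exposure addresses whether an effect lasts. After the break Ier3 was at 0.54, 0.57, 0.58, 0.50 and 0.24 in 6 week smoke and break, against 0.37, 0.56, 0.45, 0.30 and 0.49 in 6 week break sham, and the groups overlapped. In 12 week smoke and break it was at 0.35, 0.30, 0.57, 0.83 and 0.61, against 1.01, 0.58, 0.87, 0.96 and 0.91 in 12 week break sham, with overlap. The differences were 0.05 at 6 weeks (limma adjusted p = 0.999) and -0.33 at 12 weeks (SE 0.145, limma adjusted p = 0.749). At 12 weeks Ier3 was below its break sham in 5 of 5 runs (-0.67 to -0.03). In neither comparison was any of the 10 members or any other probe called (0% of all probes, with 758 and 1129 at an unadjusted p under 0.05).

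The smoke effect without a break minus that with a break was 0.61 for Ier3 (SE 0.149, 1.53-fold), short of the threshold (limma adjusted p = 0.0797, 0 of 10 members and 0.125% of all probes called). Without 6 week sham m2 it was 0.69 (1.61-fold) and passed (limma adjusted p = 0.00392, 0.547% of all probes called). In sham lungs alone, break sham minus sham gave 0.07 for Ier3 over both arms (limma adjusted p = 0.827), or 0.15 without 6 week sham m2 (limma adjusted p = 0.517), and 0 of 10 members passed beside 0.911% of all probes. In the 12 week arm break sham was 0.31 above 12 week sham (limma adjusted p = 0.501).

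The Fos family showed no called change. Fos, which pairs with Jun proteins, was at 1.58, 1.51, 1.54, -0.55 and 1.59 in 6 week smoke, against 1.08, -0.08, 1.45, 1.70 and 0.34 in 6 week sham. In 12 week smoke it was at 0.53, 1.69, 1.55 and 1.88, against 0.98, 1.52, 1.34, 0.24 and 1.43 in 12 week sham. The lung of 6 week smoke m4 stood far below its group, and smoke and sham overlapped at either duration. The pooled smoke effect on Fos was 0.12, with a 95% interval of -0.37 to 0.61, which spans changes of either sign. Without 6 week sham m2 it was 0.05, and the 6 week effect on Fos was -0.10, against 0.06 with all arrays.

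Fosb, a Fos relative with a short isoform known from brain, lay near the reference, at -0.65 to 0.67 over all lungs, with a pooled smoke effect of -0.01 (95% interval -0.26 to 0.24). Fosl2 (Fra-2), which lacks the strong activation domain of Fos, was dim, with Cy5 signals of 152 to 1621. In 12 week smoke Fosl2 was at -0.59, -0.27, -0.54 and -0.25, against -0.11, -0.03, -0.13, -0.18 and -0.03 in 12 week sham. Every smoke lung lay below every sham lung, which held for 1.38% of all probes, and within runs the difference was below 0 in 4 of 4 (-0.49 to -0.21). The fitted difference was -0.26 and did not pass (limma adjusted p = 0.768). These values lie close to background, at 1.11 to 1.22 times the threshold in 12 week smoke and 0.937 to 2.87 times in 12 week sham. At 6 weeks Fosl2 averaged 0.04 ± 0.46 in smoke and -0.07 ± 0.20 in sham (SD, n = 5 each), and its pooled effect was -0.04 (95% interval -0.33 to 0.25).

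Of the Jun family, Jun, the main AP-1 partner, was at 0.84 to 2.58 over all lungs, with a pooled smoke effect of -0.08 (95% interval -0.41 to 0.25). Junb, which can hold back Jun activity, had a pooled effect of 0.01 (95% interval -0.26 to 0.28), and 0.11 once spots at the scanner limit were left out (limma adjusted p = 0.929). Without 6 week sham m2 the pooled effects were -0.04 for Fosb, -0.01 for Fosl2, -0.10 for Jun and 0.01 for Junb. The Junb ratio differed by run, at -0.16 to 0.27 in run 1 and up to 1.93 in the others. All 8 arrays of run 1 were at the scanner limit in Cy5 and 6 of them in Cy3 too, where the ratio before normalization is held at 1 to 1, so the Junb values of run 1 are no measure of its level.

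Egr1, a zinc finger factor on chromosome 18 induced by growth factors, was at 0.39, 1.41, 1.01, -0.86 and 0.88 in 6 week smoke, against 0.27, -0.70, 1.74, 2.23 and 0.84 in 6 week sham. Ier2, a small nuclear protein encoded on chromosome 8, was at 0.23, 0.84, 0.84, -0.60 and 0.45 in 6 week smoke, against 0.42, -1.39, 1.05, 1.47 and 0.14 in 6 week sham. In both genes smoke m4 and sham m2 were the lowest lungs of their groups, the only ones below 0, and the groups overlapped. Egr1 was at the scanner limit in Cy5 in smoke m1 and sham m1, and in sham m1 in Cy3 too. That sham value is no measure of its level, and the Egr1 differences may be cut short. Differences at 6 weeks were -0.56 for Egr1 (limma adjusted p = 0.697) and -0.20 for Ier2. Without sham m2 they were -0.86 for Egr1 (limma adjusted p = 0.377) and -0.54 for Ier2 (limma adjusted p = 0.4), neither past the threshold.

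Over both durations the smoke effect was -0.20 for Egr1 (95% interval -0.70 to 0.29) and -0.21 for Ier2 (95% interval -0.61 to 0.19). Without 6 week sham m2 it was -0.34 for Egr1 (95% interval -0.79 to 0.12) and -0.36 for Ier2, whose interval of -0.67 to -0.06 left out 0 but which did not pass over all probes (limma adjusted p = 0.264). Atf3, a stress-induced factor of the ATF/CREB family, was at -0.08, 0.80, 0.97 and 1.13 in 12 week smoke, against -0.13, 1.39, -0.16, -1.39 and 0.61 in 12 week sham, and the groups overlapped. It averaged 0.71 ± 0.54 in 12 week smoke (SD, n = 4) and 0.06 ± 1.03 in 12 week sham (SD, n = 5), a fitted difference of 0.53 (limma adjusted p = 0.683). Its pooled effect was 0.21 (95% interval -0.26 to 0.69). Nr4a1 (Nur77), an orphan nuclear receptor, was at the scanner limit on all 4 arrays of 12 week smoke and on 3 of 5 of 12 week sham, so no fold is given there. It was also at the limit on 3 of 5 arrays of 6 week smoke and on 3 of 5 of 6 week sham, so the means of these groups are not compared either.

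**Figure D2:**
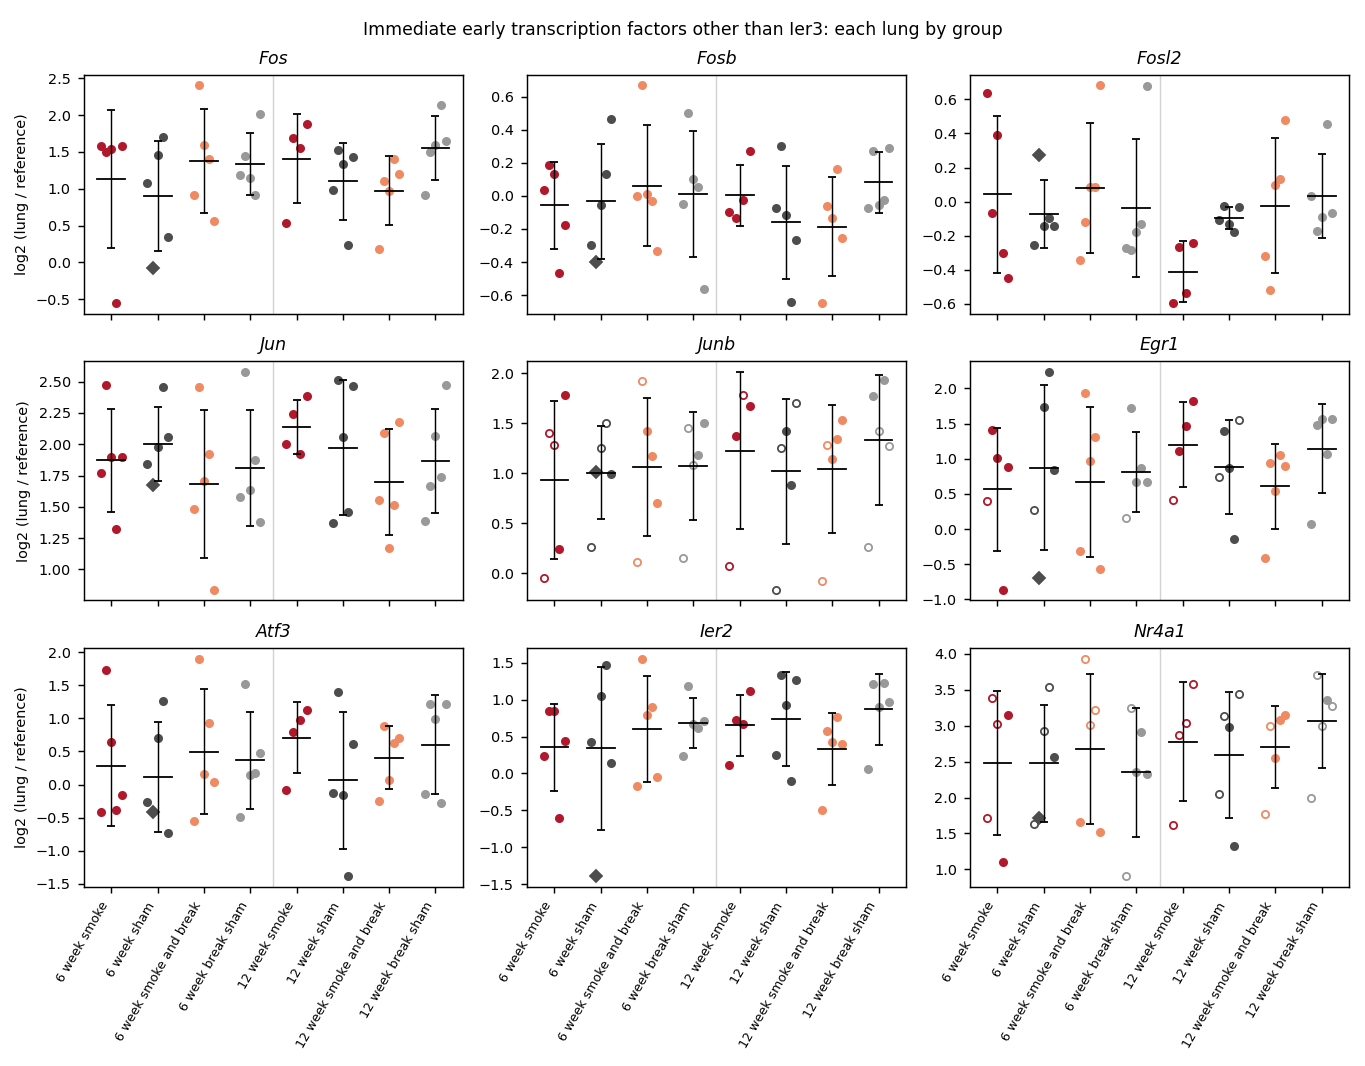
Log2 ratio of lung to reference (vertical axes) of the other 9 members in each lung by group, smoke groups left of their shams; points are lungs, open points spots at the scanner limit of 65535, black bars mean ± SD, and diamonds the array labelled 6 week sham m2. Smoke and sham lungs overlap in every panel except Fosl2 at 12 weeks, where the 4 smoke lungs lie below the 5 sham lungs.

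After the 12 week exposure and break, all 10 members had fitted differences below 0 against 12 week break sham, with a median of -0.31, whereas 52.7% of all probes lay above 0. None passed the test, and the members share arrays and vary together, so they do not count as 10 separate results. The largest were Fos at -0.58 (limma adjusted p = 0.794), Egr1 at -0.54 and Ier2 at -0.54 (limma adjusted p = 0.775). Fos was at 0.18, 1.11, 0.98, 1.41 and 1.20 in 12 week smoke and break, against 0.92, 1.49, 1.60, 2.13 and 1.65 in 12 week break sham, and the groups overlapped. Fos, Egr1, Ier2 and Ier3 were below 0 in 5 of 5 runs, and the share of all probes for which this held was not computed. The 12 week break sham group itself lay above 12 week sham in every member but Jun (-0.11), by 0.46 for Fos and 0.54 for Atf3. None of these differences was called. Nr4a1 was at the scanner limit on 4 of 5 arrays of 12 week break sham and 2 of 5 of 12 week smoke and break, and Junb on 3 and 2.

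**Figure D3:**
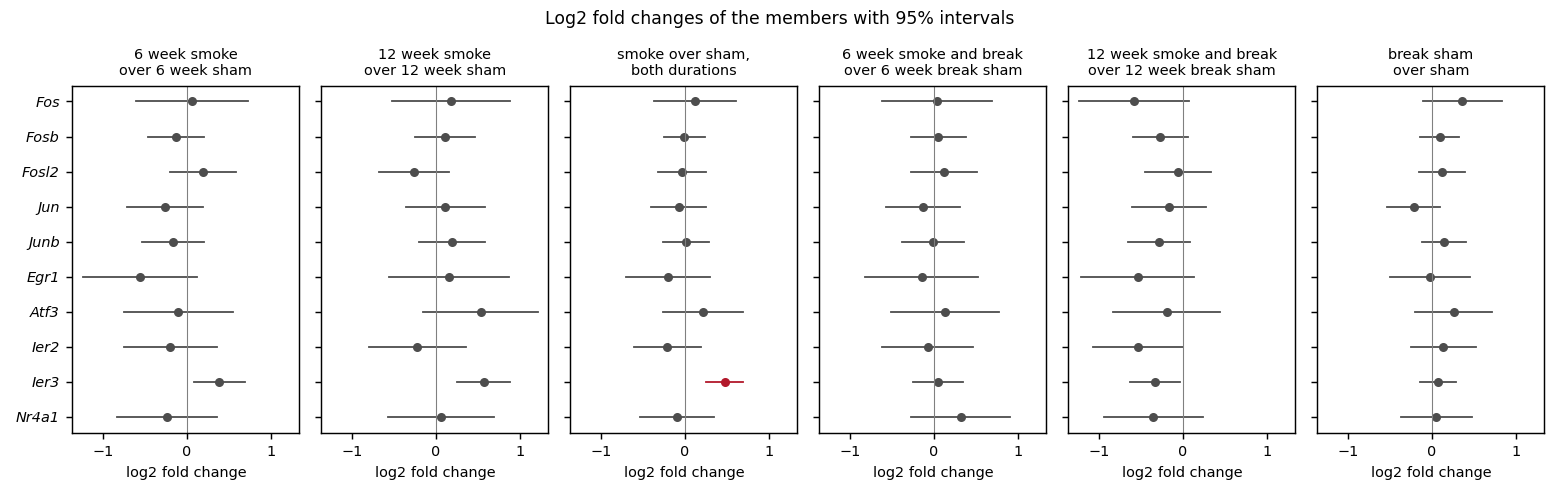
Fitted log2 fold change (horizontal axes) of each member in 6 comparisons, with 95% intervals; red marks a limma adjusted p under 0.05. Ier3 with smoke over both durations, at 0.475, is the only red point, and the intervals of the other 9 members span 0 in all 6 panels with all arrays in the fit. Nr4a1 and Junb points rest in part on arrays at the scanner limit in every group, and for Nr4a1 in 12 week smoke on nothing else.

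Most of the members varied widely between lungs of one group. After group and run were removed, the SD was 0.55 for Egr1, 0.53 for Fos, 0.52 for Atf3, 0.48 for Nr4a1 (24 arrays at the scanner limit) and 0.44 for Ier2, beside a median of 0.247 over all probes. Among probes of like intensity these 5 lay at percentiles 94.4 (Fos) to 97.9 (Egr1). Ier3 was steadier, at 0.23 (percentile 76). In Atf3, Ier2 and Fos, which never reached the scanner limit, run took more of the variance than group did, with 58.8% for run and 4.8% for group in Atf3, 53.1% and 8.3% in Ier2, and 32.5% and 9.1% in Fos.

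The variation was shared. With group and run means removed, Egr1 correlated with Ier2 at r = 0.85 and with Nr4a1 at 0.82, and Fos with Ier2 at 0.79, over 39 arrays that share a reference. Among the 9 members other than Ier3, the 36 pairs had a median r of 0.5 (-0.15 to 0.85), with 34 above 0, while the middle 95% of all pairs of kept probes ran from -0.41 to 0.42 about a median of 0. Fosl2 stood apart, with a median of 0.15, and pairs with Ier3 had a median of -0.01 (-0.32 to 0.13). The Ier3 pairs include 6 week sham m2, which had the largest Ier3 deviation of all arrays (0.642), and were not computed without it alone. Pairs with Nr4a1, Junb or Egr1 rest in part on arrays at the scanner limit (24, 21 and 6 arrays), where the ratio is bounded. Fos and Ier2 never reached it.

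**Figure D4:**
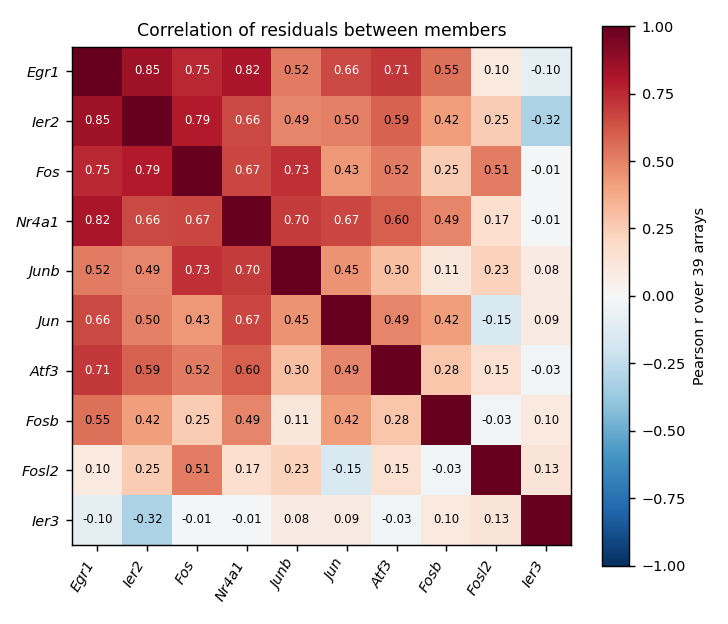
Pearson correlation between members over 39 arrays after group and run means were removed, as coloured cells (genes on both axes). Fos, Egr1, Ier2 and Nr4a1 form the warm block, with r of up to 0.85, and the Ier3 pairs run from -0.32 (with Ier2) to 0.13. Cells of Nr4a1, Junb and Egr1 rest in part on arrays at the scanner limit.

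Some lungs stood apart in many members at once. The mean deviation of the 9 members, in SD units, was lowest in 6 week smoke m4 (-1.60), 6 week sham m2 (-1.21) and 12 week sham m4 (-1.10), and highest in 12 week smoke and break m5 (1.77), 12 week break sham m5 (1.48) and 6 week smoke and break m2 (1.22). Of these 6 lungs, 5 belong to run 5, and the last named to run 4. In 12 week sham m4, 7 of the 9 members were at their lowest in the group, and in 6 week smoke and break m2, 8 of the 9 were at their highest. Without 6 week smoke m4 and 6 week sham m2, the 36 pairs kept a median r of 0.47 (-0.25 to 0.86), with 34 above 0. With run 5 left out, over 31 arrays, the 36 pairs had a median r of 0.34 (-0.23 to 0.76). Egr1 with Nr4a1 then fell to 0.55, against 0.82 over all arrays. The pairs with Ier3 were then all above 0 (median 0.28, 0.13 to 0.40, 9 of 9), so their median near 0 was not seen outside run 5. Run 5 includes 6 week sham m2, where Ier3 deviated by 0.642, against -1.369 for Ier2, -1.175 for Egr1 and -0.621 for Fos. Of the other members only Fosl2 was above 0 there, at 0.204. The Ier3 pairs were not computed without that array alone, so its part and that of the run cannot be told apart. The mean deviation correlated with the share of probes above threshold at 0.06 and with Cy5 over background at 0.05.

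**Figure D5:**
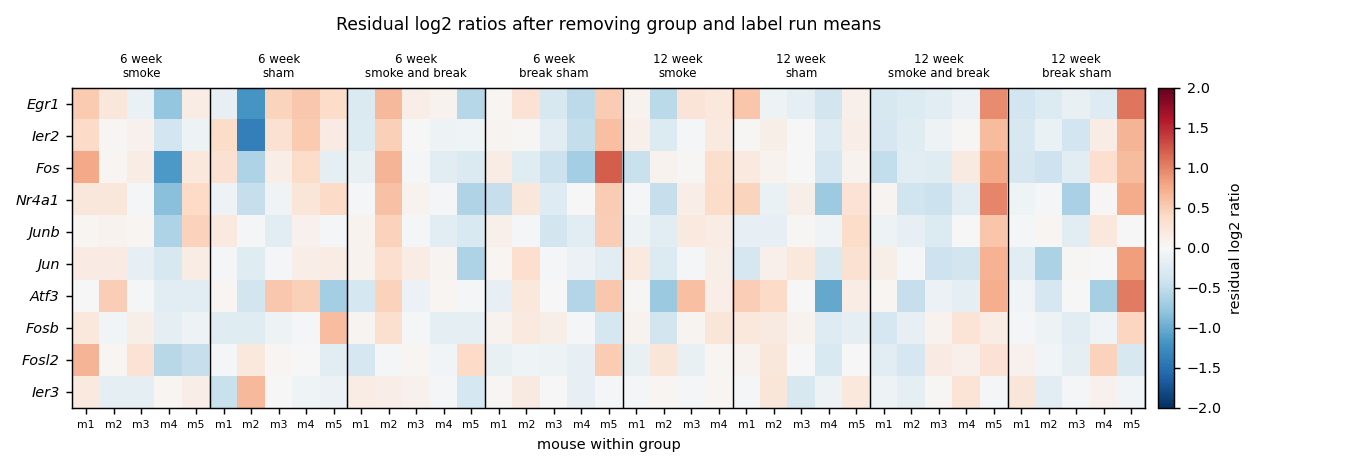
Deviation of each member (rows) from its group and run means in each of the 39 lungs (columns), as a residual log2 ratio by colour. Cold columns such as 6 week smoke m4 and 6 week sham m2 and warm ones such as 6 week smoke and break m2 run through most members.

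Outside the 10 members, the named probes whose pattern over the 39 arrays was closest to the members' mean z-score, after run means were removed, were Zfp36 (r = 0.87), Btg2 (0.86), Egr2 (0.78), Spsb2 (0.76) and Errfi1 (0.73). Among the members themselves, r with that mean was 0.88 for Egr1, 0.85 for Nr4a1 and 0.85 for Fos, but 0.27 for Fosl2 and 0.21 for Ier3. Each member is part of that mean, which raises its r, so these values are not comparable with those of the genes outside.

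Related genes were then read from lists, beside 154 higher and 38 lower among all 14659 genes with smoke over both durations (median 0.01). Of the other AP-1 and small Maf genes, 13 of 14 were kept and 0 were called (median 0.04), the largest values being Mafk at 0.28 (limma adjusted p = 0.201), Maff at 0.22 (limma adjusted p = 0.628) and Fosl1 at 0.19 (limma adjusted p = 0.735). Of the other immediate early transcription factors, 20 of 22 were kept, 2 were called higher and 0 lower (median 0.14). These were Nfil3, a basic leucine zipper repressor, at 0.70 (1.62-fold, limma adjusted p = 0.000365), and Cebpb, a leucine zipper factor of inflammation, at 0.44 (1.36-fold, limma adjusted p = 0.0292). Nfil3 was also called in 12 week smoke, at 1.01 (limma adjusted p = 0.000449), but not in 6 week smoke, at 0.39 (limma adjusted p = 0.444). Klf2, a zinc finger factor of endothelium, was at 0.36 and did not pass (limma adjusted p = 0.142). Its mean Cy5 of 62420.4 was close to the scanner limit of 65535, so its value may be cut short.

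Of immediate early genes that are not transcription factors, 24 of 27 were kept, 2 were called higher and 0 lower (median 0.09). Ptgs2 (COX-2), the inducible enzyme of prostaglandin synthesis, was higher by 1.33 (2.52-fold, limma adjusted p = 8.4e-05), and by 1.86 in 12 week smoke (3.63-fold, limma adjusted p = 0.000174). Phlda1, a pleckstrin-like protein, was higher by 0.37 (1.29-fold, limma adjusted p = 0.0164), and Sgk1, a serum-induced kinase, was at 0.43 (limma adjusted p = 0.238). Of the kinases upstream, 24 of 33 were kept, 2 were called higher and 0 lower (median -0.02). These were Map2k3, a kinase that activates p38, at 0.26 (1.2-fold, limma adjusted p = 0.0299), and Map3k6 (ASK2), a stress kinase above p38 and JNK, at 0.63 (1.55-fold, limma adjusted p = 0.0324). Map2k6, the other p38 activator of that tier, was at -0.29 and did not pass (limma adjusted p = 0.164). Without 6 week sham m2 it was at -0.37 and passed (limma adjusted p = 0.00433), and the 6 list genes called with all arrays kept their calls. Map3k6 also differed in sham lungs alone, at -0.825 in break sham against sham (limma adjusted p = 0.00312). Ptgs2 and Map3k6, like Ier3, belong to the list the study chose on these arrays, so their direction is not independent evidence.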

How the data were processed

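Each of 39 lungs was hybridized on its own 2-colour array. The authors labelled lung RNA with Cy5 and reference RNA with Cy3, and their deposited scanner output is intensity per spot and of its local background, before any normalization. The authors also deposited log2 ratios after LOWESS normalization, which served as an alternative (r with the values used here 0.975 to 0.996 per array). Intensities were background corrected (normexp, offset 50) and normalized by loess within arrays, and spots of a probe were averaged. Probes were kept where Cy5 exceeded the trimmed mean plus 3 SD of 162 negative control spots (5% trimmed at each end) in at least 4 arrays of 1 group. One limma model (R 4.3.3, limma 3.58.1) held the 8 group means and the 5 label runs, read from the sequence of exposure-date labels, as a block. P-values were adjusted by Benjamini-Hochberg over 17560 probes, with 0.05 as the threshold. The scripts were tested on simulated data. Members and gene lists were chosen with earlier results of these data known. Named beyond the members were, of each list, the genes that passed with smoke or, where fewer than 3 passed, those of largest pooled change, and the 5 probes most like the members' mean. Alternatives covered background correction, normalization, starting values, run, dim-probe filter, array weights, groups fitted, threshold, scanner marks, spots at the scanner limit (added after the data were seen) and leaving out each array.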

Additional observations from a re-analysis of the deposited data

Results flagged for a closer look

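In each of the 8 groups each member was checked for a lung whose gap to the nearest other exceeded Dixon's 95% limit as a share of the group's range. Of 80 member and group combinations 5 passed, and chance alone flags about 1 in 20.

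Fos in 6 week smoke m4 was at -0.55, the other 4 lungs at 1.51 to 1.59 (gap 0.962 of the range). That array also had the fewest probes above threshold, at 48.4%, and Fos was under the threshold there. Fosl2 in 6 week break sham m5 was at 0.68, the others at -0.29 to -0.13 (0.842). Junb in 12 week smoke and break m1 was at -0.08, at the scanner limit and in run 1, the others at 1.14 to 1.53 (0.76). Ier2 in 12 week break sham m1 was at 0.06, the others at 0.89 to 1.22 (0.719). Ier3 in 6 week smoke and break m5 was at 0.24, the others at 0.50 to 0.58 (0.753). No member's smoke effect differed between durations in limma at the threshold.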

How the results depend on the processing

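With smoke over both durations, 1 member probe (Ier3) was called, and 0 with only the groups of the contrast fitted. Leaving out each array gave 0 to 1, with 0 without 6 week sham m1. At 12 weeks the count was 0, and 1 (Ier3) with array weights, and leaving out each array gave 0 to 1, with 1 without 6 week sham m2. For smoke without minus with a break it was 0, but 1 (Ier3) with array weights, at an adjusted p of 0.1 and with marked spots left out, and leaving out each array gave 0 to 1, with 1 without 6 week sham m2. Pooled Ier3 ran from 0.402 to 0.547 when each array was left out (limma adjusted p 0.000517 to 0.0575) and from 0.448 to 0.502 over 13 other settings (limma adjusted p 0.00284 to 0.137). No called value changed sign. Of uncalled values, 83 of 3081 changed sign on leaving out an array and 49 of 1008 under other settings, all with a main size of at most 0.319.

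Counts over all probes moved more. With smoke over both durations 214 were called, but 122 with median centring, 107 without run, 409 with array weights, 45 with only the groups of the contrast, 440 at 0.1, 390 with marked spots left out, and 106 (without 12 week smoke m1) to 285 (without 6 week sham m2) on leaving out an array. At 12 weeks 76 were called, but 46, 203, 11, 122 and 127 without run, with array weights, with only those groups, at 0.1 and with marked spots left out, and 44 to 91 on leaving out an array (lowest without 12 week smoke m1). At 6 weeks 11 were called, but 26 with median centring, 22, 0, 23 and 46 with array weights, only those groups, 0.1 and marked spots left out, and 7 (without 6 week smoke m1, among others) to 33 (without 6 week sham m2) on leaving out an array. For smoke without minus with a break 22 were called, but 14 without run, 85 higher and 50 lower with array weights, and 89 and 92 at 0.1 and with marked spots left out, and up to 96 without 6 week sham m2. For break sham against sham 160 were called, but 89, 54, 106, 47, 299 and 247 with median centring, without run, with run as a random block, with only those groups, at 0.1 and with marked spots left out, and 95 to 192 on leaving out an array (lowest without 12 week sham m3). Comparisons with 0 calls reached at most 5 (6 week smoke and break, array weights).

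The labels give the groups no shared replicate numbers, so none pairs the mice; arrays were tied across groups only by label run, through the run block and the within-run differences. Averaging the probes of a gene was not run, since each member has 1 probe. Spots at the scanner limit bound what Junb, Nr4a1 and Egr1 can show, and with them left out Nr4a1 had no estimate where 12 week smoke enters. Fosl2 was close to background on most arrays, and Atf3 on some.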
